A study of Mus musculus with 6 samples.

Results

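The genes described here are the Akr1c aldo-keto reductases of the mouse kidney and a group of renal steroid-converting enzymes, namely Akr1c18, Akr1c14, Akr1c21, Akr1c12, Akr1c13, Akr1c19, Hsd11b1, Cyp7b1, Hsd3b4 and Hsd17b11. Each gene was taken as the transcript cluster (the set of probes that the array reads for about 1 gene) annotated with its symbol. Of these 10 genes 9 had such a cluster, out of 22206 clusters tested, and each of the 9 had 1 cluster only. Hsd3b4, which encodes a steroid reductase of the mouse kidney, had no cluster under its name in the annotation and was not analysed here. The genes were selected on their PT2385 minus vehicle differences in these same arrays, so those differences are given as a description, with no test of them. Where calls or counts over the members appear, nothing is read from them, and the share of all clusters is given where it was taken.

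RNA came from renal tubular epithelial cells released from mouse kidneys with collagenase that had been without blood flow for 30 min and reperfused for 24 h, an acute kidney injury model. The PT2385 group (3 arrays) came from mice given 10 mg/kg of PT2385, an inhibitor of the hypoxia-inducible factor HIF-2α, at 16 h before surgery and at 1, 8 and 20 h after it. The protocol spells the injected compound PT2384 at that place. The vehicle group (3 arrays) went through the same ischemia and reperfusion, and samples without ischemia were not analysed here. The labels call the samples IRPT and IR, which were read as the PT2385 and vehicle arms, and they give no genotype, strain, age or sex and do not say whether kidneys were pooled.

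Aldo-keto reductases of the Akr1c family are soluble enzymes that use NADPH or NADH to reduce keto groups of steroids, prostaglandins and other carbonyl compounds. By adding or removing hydrogen at single positions they switch steroid hormones between active and inactive forms inside the cell that takes them up. The proximal tubule of the kidney is a major site of such conversion, and in mice many of its steroid and drug enzymes are set by sex hormones. The other measured genes of the group also act on steroids or oxysterols. Hsd11b1 regenerates active glucocorticoid, and Hsd17b11 is a dehydrogenase of lipid droplets that acts on androgen derivatives. Cyp7b1 hydroxylates oxysterols and the adrenal steroid DHEA.

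The 6 Akr1c members all lie in 1 gene cluster on chromosome 13, which also holds Akr1c6 and Akr1c20. In RefSeq (GRCm38.p6) the order is Akr1c14, Akr1c18, Akr1c13, Akr1c19, Akr1c12, Akr1c6, Akr1c20, Akr1c21. The members with the highest and the lowest difference, Akr1c18 and Akr1c14, are therefore neighbours. The windows from 250 bases before to 50 bases after their annotated starts are shown because the mean differences of these neighbours had opposite signs. They are RefSeq sequence of GRCm38.p6, printed 5′ to 3′ on the gene's strand.
Akr1c18, chr13:4150597-4150896, minus strand: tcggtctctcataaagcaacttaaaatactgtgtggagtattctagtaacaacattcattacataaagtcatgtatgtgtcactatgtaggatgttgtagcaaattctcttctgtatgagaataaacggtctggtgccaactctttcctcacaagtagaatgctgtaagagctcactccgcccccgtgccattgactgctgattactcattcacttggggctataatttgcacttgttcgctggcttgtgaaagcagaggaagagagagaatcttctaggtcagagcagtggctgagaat
Akr1c14, chr13:4059341-4059640, plus strand: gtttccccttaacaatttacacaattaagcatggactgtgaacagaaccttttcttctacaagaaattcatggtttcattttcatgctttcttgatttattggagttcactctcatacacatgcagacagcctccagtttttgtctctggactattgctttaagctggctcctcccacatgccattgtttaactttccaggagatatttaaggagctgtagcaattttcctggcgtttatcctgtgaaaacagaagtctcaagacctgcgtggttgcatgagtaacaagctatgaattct
Motifs were searched on both strands. They were ACGTG (a form of the core of hypoxia response elements), AGAACA (part of the sites that steroid receptors bind) and TTCNNNGAA (a STAT site). Neither window held any of them, so both stand in lower case. Other forms of the hypoxia core were not searched, so its absence from a window is not shown.

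The windows of Akr1c12 and Akr1c13 are shown because they are nearly alike, while the genes' values below differ. Of 296 aligned bases 284 were identical (95.9%). Capitals mark the 12 aligned bases that differ and the 1 base without a partner. The next closest pair, Akr1c13 and Akr1c19, shared 188 of 280 aligned bases (67.1%).
Akr1c12, chr13:4279350-4279649, minus strand: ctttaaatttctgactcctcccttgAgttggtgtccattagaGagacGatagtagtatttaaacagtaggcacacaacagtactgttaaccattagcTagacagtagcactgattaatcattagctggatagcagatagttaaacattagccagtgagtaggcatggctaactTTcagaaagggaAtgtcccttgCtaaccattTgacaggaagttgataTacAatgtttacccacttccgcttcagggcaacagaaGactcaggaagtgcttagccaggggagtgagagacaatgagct
Akr1c13, chr13:4190937-4191236, plus strand: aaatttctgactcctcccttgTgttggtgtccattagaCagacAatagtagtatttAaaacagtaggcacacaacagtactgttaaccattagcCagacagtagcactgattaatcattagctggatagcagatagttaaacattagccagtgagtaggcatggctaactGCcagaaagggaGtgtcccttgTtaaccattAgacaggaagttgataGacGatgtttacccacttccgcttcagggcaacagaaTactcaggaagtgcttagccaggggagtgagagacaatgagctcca

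Akr1c21 was the only member whose window held ACGTG, which 19.6% of all 32851 windows hold. Its matches on the plus and the minus strand overlap in 1 stretch of 6 bases, which stands in capitals below. Akr1c19 held the only TTCNNNGAA match of the group, at 24 bases before its start, a motif found in 8.3% of all windows. AGAACA, found in 19.0% of all windows, was present for Hsd3b4 alone. Cyp7b1 had no window in the table. A match is only a description of these letters.
Akr1c21, chr13:4573825-4574124, plus strand: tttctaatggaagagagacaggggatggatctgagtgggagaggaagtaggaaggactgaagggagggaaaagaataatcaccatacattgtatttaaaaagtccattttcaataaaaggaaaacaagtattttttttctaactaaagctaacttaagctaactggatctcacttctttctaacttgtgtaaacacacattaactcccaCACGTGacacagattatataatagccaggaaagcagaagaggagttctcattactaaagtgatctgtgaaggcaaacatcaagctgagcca

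Before the results, 1 property of the arrays touches every difference below. The Y-linked translation factor gene Eif2s3y had log2 signals of 3.27, 3.04 and 3.34 in the PT2385 arrays, against 9.09, 9.24 and 9.28 in the vehicle arrays. The Y-linked histone demethylase genes Uty and Kdm5d separated the groups in the same way, with PT2385 means inside the span of the array's background control rows (2.41 to 7.47). Treatment and sex, which the Y-linked signals go with, therefore cannot be told apart in any difference given here. As a check of the labelled cell type, both group means lay inside that span for 0 of 10 measured markers of proximal tubule segments 1 and 2, 1 of 8 of segment 3, 2 of 10 of the loop and distal tubule and 1 of 10 of the collecting duct. The same held for 1 of 7 endothelial, 2 of 7 stromal and 7 of 8 leukocyte markers, so markers of cells other than tubule cells were also measured above it. The span runs from the lowest to the highest value of the control rows, whose median was 3.60. It also holds the vehicle mean of Kdm5d (6.47, against 3.32 in the PT2385 group), so a mean inside it is not shown to be background. Log2 signals of different clusters depend on their probes and are compared here only between arrays, not between genes. These are bulk isolates, in which fewer cells of a type and less RNA per cell cannot be told apart.

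Akr1c18 stood far above its vehicle level in every PT2385 array. The gene encodes the mouse 20-alpha-hydroxysteroid dehydrogenase, which turns progesterone into an inactive metabolite and is best known from the ovary and from the X-zone of the adrenal cortex. Its log2 signals were 11.48, 10.41 and 9.93 in the PT2385 arrays, against 5.0, 5.76 and 5.74 in the vehicle arrays. The lowest PT2385 array lay 4.17 above the highest vehicle array. Akr1c18 averaged 10.61 ± 0.79 (SD, n = 3) over the PT2385 arrays and 5.50 ± 0.43 (SD, n = 3) over the vehicle arrays, a difference of 5.11 on the log2 scale, or 34.5-fold. The vehicle mean lies inside the span of the background control rows, so the difference can be understated. It stayed between 4.67 and 5.44 when any 1 array was left out.

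Since Akr1c18 is also known from the adrenal gland, 9 markers of the adrenal cortex were read from the same arrays. The steroid-synthesis genes of the adrenal cortex include Star, which moves cholesterol into mitochondria, and Cyp11a1, Cyp11b1, Cyp11b2 and Cyp21a1, which build corticoids. All 9 markers had both group means inside the span of the background control rows, and 0 passed the threshold of an adjusted p under 0.05 (limma, Benjamini-Hochberg over all clusters), nor did any have an unadjusted p under 0.05. Their mean signal was 4.68 to 4.82 in the PT2385 arrays and 4.69 to 4.85 in the vehicle arrays. Cyp11b1, the last enzyme of corticosterone synthesis, had 5.04, 5.07 and 5.04 in the PT2385 arrays, against 4.78, 5.10 and 4.89 in the vehicle arrays. Pik3c2g, a lipid kinase gene that also marks the X-zone, had 6.86, 6.32 and 5.88 in the PT2385 arrays, against 6.49, 6.83 and 6.44 in the vehicle arrays. The markers Star (-0.28), Cyp11a1 (0.18), Cyp21a1 (0.08), Cyp11b2 (0.07), Hsd3b1 (-0.06), Nr5a1 (-0.01) and Mc2r (0.01) had small log2 differences, with adjusted p between 0.418 and 0.981. Of the 9 markers only Cyp11a1 had groups that did not overlap, with higher values in the PT2385 arrays, which 11.6% of all clusters also show. It had 3.37, 3.42 and 3.28 in the PT2385 arrays, against 3.19, 3.09 and 3.24 in the vehicle arrays. The part of adrenal tissue in the difference of Akr1c18 was not tested.

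Akr1c14, the neighbour of Akr1c18, had the lowest difference, but not in every array. Akr1c14 encodes a 3-alpha-hydroxysteroid dehydrogenase, which acts on reduced androgens and progestins. Its log2 signals were 7.61, 5.79 and 5.20 in the PT2385 arrays, against 7.70, 7.58 and 7.81 in the vehicle arrays. Replicate 1 of the PT2385 group lay just above the lowest vehicle array and the other 2 PT2385 arrays lay well under all of them, so the groups overlapped. This narrow overlap (7.61 against 7.58) was lost when each array was centred on its median. Akr1c14 averaged 6.20 ± 1.25 (SD, n = 3) over the PT2385 arrays and 7.70 ± 0.11 (SD, n = 3) over the vehicle arrays, a difference of -1.49. The PT2385 mean lies inside the span of the background control rows, so this difference can be understated too. Without PT2385 replicate 1 the difference was -2.20, and without PT2385 replicate 3 it was -0.995.

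Akr1c21 had its PT2385 arrays in the same order as Akr1c14, but at other places relative to the vehicle arrays. Akr1c21 encodes a 17-alpha-hydroxysteroid dehydrogenase that is abundant in mouse kidney. Its log2 signals were 11.75, 10.80 and 9.54 in the PT2385 arrays, against 11.54, 10.68 and 11.12 in the vehicle arrays. Replicate 1 of the PT2385 group lay above all 3 vehicle arrays, replicate 2 among them and replicate 3 below them. The spread within the PT2385 group, 2.22 on the log2 scale, was larger than the difference of the means (-0.42). The sign of that difference turned when PT2385 replicate 3 was left out (0.16), so no direction can be given for this gene.

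Akr1c12 and Akr1c13, the pair with nearly identical windows, did not show the same difference. Akr1c12 had log2 signals of 7.05, 6.86 and 7.25 in the PT2385 arrays, against 6.50, 6.72 and 6.62 in the vehicle arrays, with no overlap and a difference of 0.44. Akr1c13 had 7.07, 6.99 and 7.28 in the PT2385 arrays, against 6.72, 7.51 and 7.02 in the vehicle arrays. The vehicle arrays of Akr1c13 spread over 0.79 and enclosed all 3 PT2385 arrays, and the difference of 0.03 changed sign with the array left out (-0.15 to 0.24). How far the probes of either gene also bind the other's transcript was not tested, and the windows, which mostly lie before the start, do not show it.

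Akr1c19, an aldo-keto reductase gene that lies between this pair, was modestly higher in the PT2385 arrays without overlap. Its log2 signals were 7.61, 7.32 and 7.03 in the PT2385 arrays, against 6.83, 6.76 and 6.68 in the vehicle arrays. The difference was 0.57, or 1.48-fold, and the gap between the nearest arrays of the groups was 0.20. For Akr1c12, Akr1c13, Akr1c19 and Cyp7b1 both group means lay inside the span of the background control rows, so their differences can be understated.

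**Figure D1:**
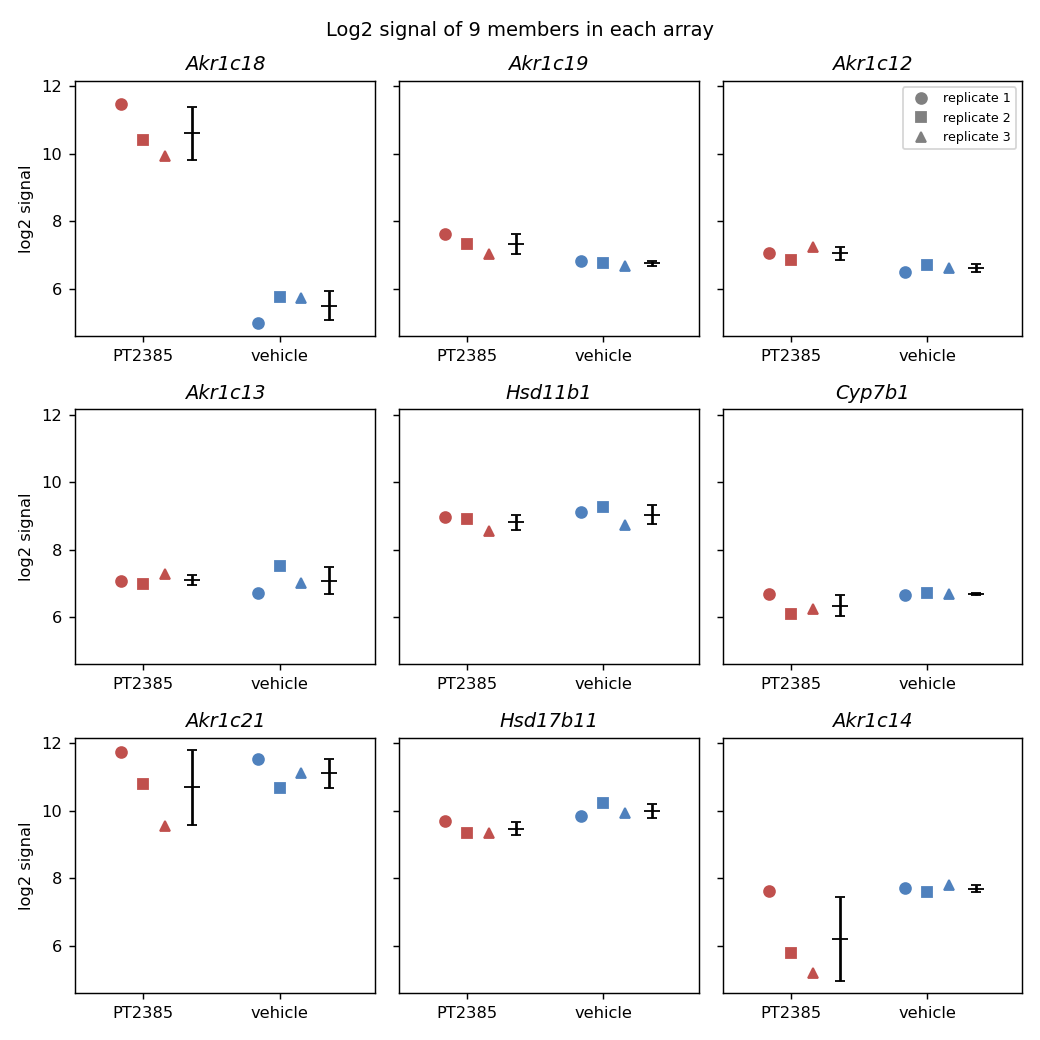
Log2 signal (vertical axis) of the 9 measured genes in the 3 PT2385 arrays (red) and 3 vehicle arrays (blue); symbols mark replicate numbers and black bars the mean ± SD. Akr1c18 is separated by 4.17 between its nearest arrays, while Akr1c14 and Akr1c21 spread over 2.41 and 2.22 within the PT2385 group.

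Of the enzymes outside the Akr1c family, only Hsd17b11 had groups that did not overlap in the deposited values. Hsd17b11 had log2 signals of 9.68, 9.35 and 9.34 in the PT2385 arrays, against 9.84, 10.22 and 9.92 in the vehicle arrays, a difference of -0.53. The nearest arrays of the groups were 0.16 apart. Hsd11b1, which reactivates glucocorticoid with NADPH from the enzyme of H6pd, had 8.97, 8.92 and 8.55 in the PT2385 arrays, against 9.11, 9.27 and 8.72 in the vehicle arrays, and its difference (-0.22) was smaller than the spread within either group. Cyp7b1 had 6.68, 6.09 and 6.26 in the PT2385 arrays, against 6.65, 6.72 and 6.69 in the vehicle arrays. As with Akr1c14, replicate 1 of the PT2385 group lay among the vehicle values of Cyp7b1 and the other PT2385 arrays lay below them, with a difference of means of -0.34. The overlap of Cyp7b1 was also lost with centred arrays.

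Over the 9 genes, 4 had a higher and 5 a lower mean in the PT2385 group (3 and 6 with centred arrays, where Akr1c13 changed sign), with a median difference of -0.22, against 0.02 over all clusters. Groups did not overlap for 3 higher genes, which 11.6% of all clusters also show, and for 1 lower gene, which 9.13% of all clusters show. A difference of at least 2-fold was seen in 2 of the 9, Akr1c18 and Akr1c14, and in 0.707% of all clusters. The fit over all clusters called 1 of the 9, Akr1c18, as higher and 0 as lower, against 0.333% and 0.495% of all clusters. The genes were selected on this contrast, so these counts and the call describe the choice and support nothing. Centring each array on its median moved the number of non-overlapping genes to 3 higher and 3 lower, and quantile normalization to 3 higher and 2 lower. The share of all clusters was not taken under these scalings, so nothing is read from the change.

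**Figure D2:**
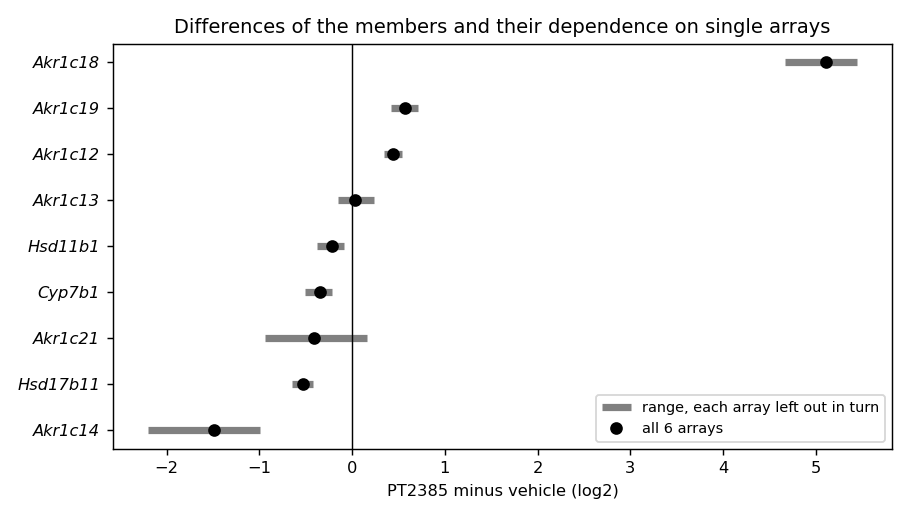
PT2385 minus vehicle difference (horizontal axis, log2) of each gene over all 6 arrays (black point) with the range obtained when each array was left out in turn (grey bar). The bars of Akr1c21 (-0.94 to 0.16) and Akr1c13 (-0.15 to 0.24) cross 0, and those of the other 7 genes do not.

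Among the PT2385 arrays, replicate 1 was the highest for 7 of the 9 genes, all but Akr1c12 and Akr1c13, and replicate 3 was the lowest for 6. The share of all clusters with either position was not taken, so nothing is read from these counts. Markers of proximal tubule segments 1 and 2 stood in the same order, with a mean deviation from their 6-array average of 0.48, -0.08 and -0.53 in PT2385 replicates 1, 2 and 3, against 0.12, -0.15 and 0.15 in the vehicle arrays. Gatm, a creatine-synthesis gene of that list, had 11.14, 9.82 and 8.74 in the PT2385 arrays, against 10.00, 9.24 and 9.80 in the vehicle arrays. Markers of segment 3 gave deviations of 0.53, -0.13 and -0.29 in the PT2385 arrays, against -0.23, -0.11 and 0.22 in the vehicle arrays. The order was not confined to proximal tubule lists, since the loop and distal list gave 1.15, 0.50 and 0.09 and the collecting duct list 0.32, 0.24 and 0.16 in PT2385 replicates 1, 2 and 3. The part of these tubule markers in the differences of Akr1c14, Akr1c21 and Cyp7b1 was not tested.

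Other marker lists moved with the groups too. All 10 loop of Henle and distal tubule markers had higher means in the PT2385 group, with list means of 9.01 to 10.07 in the PT2385 arrays and 8.29 to 8.40 in the vehicle arrays. All 10 collecting duct markers were also higher, at 8.46 to 8.62 in the PT2385 arrays and 7.98 to 8.12 in the vehicle arrays. Of these 20 markers 1 passed the threshold, the tight junction gene Cldn19 (1.24, SE 0.18, adjusted p = 0.0259), which lost the call without any 1 of 3 arrays (adjusted p up to 0.149). The smallest unadjusted p of the collecting duct list were at Scnn1b (0.55, adjusted p = 0.0535, limma) and Aqp2 (1.10, adjusted p = 0.0552). Both passed with quantile normalization (adjusted p = 0.0383 and 0.0491) and neither with centred arrays (adjusted p = 0.0685 and 0.0591). Of 8 measured leukocyte markers 6 had lower means, with list means of 5.55 to 5.80 in the PT2385 arrays and 6.00 to 6.35 in the vehicle arrays, and 1 passed, the lysozyme gene Lyz2 (-1.19, SE 0.16, adjusted p = 0.0202), a call lost without PT2385 replicate 2 or vehicle replicate 3. Among the proximal tubule markers the transporter genes Slc7a13 (-4.09, SE 0.21, adjusted p = 5.41e-05) and Slc22a6 (-0.97, SE 0.10, adjusted p = 0.00572) were lower past the threshold. Slc7a13 was not typical of the segment 3 list, in which 5 of 8 genes had higher means in the PT2385 group and the median difference was 0.68. Of that list, Slc22a19 (1.89), Aadat (1.26), Slc5a10 (1.02) and Slc6a18 (0.37) were higher without overlap, with adjusted p between 0.0819 and 0.333, and Slc7a13 and Atp11a (-0.64) lower without overlap. Of the 10 markers of segments 1 and 2, 4 had higher and 6 lower means. Endothelial and stromal lists had 0 members past it (limma, with 0 and 2 at an unadjusted p under 0.05), with Plvap (0.34), Cdh5 (-0.14), Lum (0.45) and Dcn (0.51) at their smallest unadjusted p. The part of these lists in the differences of the members was not tested.

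**Figure D3:**
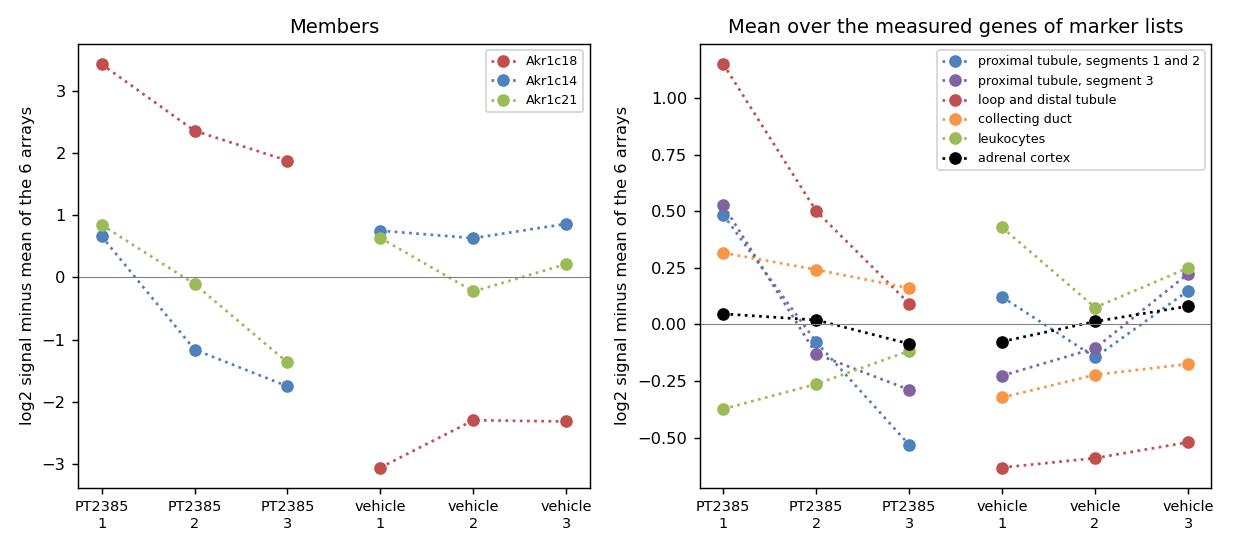
Left, log2 signal minus the mean of the 6 arrays for Akr1c18, Akr1c14 and Akr1c21; right, the same deviation averaged over the measured genes of 6 marker lists, with PT2385 arrays on the left of each panel. Dotted lines join the arrays of a group and mark no order; Akr1c21 and the proximal tubule lists are highest in PT2385 replicate 1 and lowest in replicate 3, and the adrenal list stays within 0.09 of 0.

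The remaining genes of steroid handling were read from 8 lists of enzymes, receptors and responsive genes, of which 86 of 98 genes were measured. Of these 86 genes 1 was lower and 0 higher past the threshold (1.16%), against 0.829% of all clusters, and their median difference was -0.04. An unadjusted p under 0.05 was found for 14 of them (16.3%), against 14.5% of all clusters. Groups did not overlap for 17.4%, against 20.7% of all clusters.

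The gene that passed was Hsd17b2, whose enzyme oxidises estradiol and testosterone to less active forms. Hsd17b2 had log2 signals of 4.75, 4.93 and 4.83 in the PT2385 arrays, against 5.38, 5.73 and 5.64 in the vehicle arrays. The difference was -0.75 (SE 0.12, adjusted p = 0.0325, limma). Both means lay inside the span of the background control rows, and the call was lost without any 1 of 5 arrays, all but vehicle replicate 1, with adjusted p up to 0.139. Hsd17b7, which takes part in cholesterol synthesis and estradiol formation, had 7.87, 7.64 and 7.99 in the PT2385 arrays, against 8.39, 8.62 and 8.46 in the vehicle arrays, and narrowly missed the threshold (-0.66, SE 0.12, adjusted p = 0.0541). It passed when arrays were centred on their medians (adjusted p = 0.0433).

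Among the close relatives of the members, the Hsd3b genes, which oxidise or reduce the A ring of steroids, did not share 1 pattern, and 3 of them had the PT2385 arrays in the order of Akr1c21 and Akr1c14 with wide spreads. Hsd3b2 had 9.86, 8.42 and 6.89 in the PT2385 arrays, against 9.81, 8.21 and 9.14 in the vehicle arrays. Hsd3b3 had 10.63, 9.64 and 8.35 in the PT2385 arrays, against 10.09, 9.43 and 10.03 in the vehicle arrays. Hsd3b5 had 11.01, 10.52 and 9.64 in the PT2385 arrays, against 10.41, 9.38 and 10.48 in the vehicle arrays. In Hsd3b5 PT2385 replicates 1 and 2 lay above all vehicle arrays, and in Hsd3b2 and Hsd3b3 replicate 1 alone did. In all 3 the groups overlapped, and the differences of -0.66, -0.31 and 0.30 had adjusted p between 0.684 and 0.803. Whether probes of 1 Hsd3b gene also bind transcripts of another was not tested. Hsd3b7 had 6.71, 6.80 and 6.91 in the PT2385 arrays, against 6.71, 7.08 and 6.76 in the vehicle arrays (-0.04, adjusted p = 0.900), with replicate 1 the lowest PT2385 array. Hsd3b6 differed by 0.21 (adjusted p = 0.639) and the adrenal marker Hsd3b1 by -0.06. In both, PT2385 replicate 1 was again the highest and replicate 3 the lowest of the group, with narrower spreads (0.58 and 0.28). The glucocorticoid-inactivating enzyme gene Hsd11b2, which protects the mineralocorticoid receptor of the distal nephron, had 9.40, 9.23 and 8.97 in the PT2385 arrays, against 8.80, 8.65 and 8.90 in the vehicle arrays. Its groups did not overlap, the difference was 0.42 (SE 0.13, adjusted p = 0.216), and it stands beside the higher distal markers given above.

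Other aldo-keto reductase genes differed by -0.74 to -0.04 on the log2 scale. Of the 8 measured aldo-keto reductase genes outside the group 0 passed the threshold (limma, and 0 at an unadjusted p under 0.05), and all 8 had lower means in the PT2385 group, with a median difference of -0.07 (7 of 8 lower with quantile normalization). Akr1c6, a member of the same gene cluster known from mouse liver, had 3.67, 3.25 and 3.46 in the PT2385 arrays, against 3.57, 3.61 and 3.51 in the vehicle arrays, and Akr1cl (-0.04) was similarly dim. Akr1b8, a stress-inducible aldose reductase relative, had the smallest unadjusted p of the list, with 8.01, 8.91 and 9.98 in the PT2385 arrays, against 9.46, 10.02 and 9.66 in the vehicle arrays (-0.74, adjusted p = 0.453). Akr1d1, the bile acid pathway reductase, came next with -0.22. In Akr1b8 replicate 1 was the lowest PT2385 array, the reverse of the order in Akr1c21.

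In the other 6 lists 0 genes passed the threshold (limma), and 11 had an unadjusted p under 0.05. Steroid synthesis and reduction genes (10 measured, median -0.03) had their smallest unadjusted p at Srd5a3 (-0.17) and Cyp11a1 (0.18). Of the oxysterol and vitamin D hydroxylases (10 measured, median -0.01), the cholesterol hydroxylase gene Cyp46a1 (0.45, adjusted p = 0.135) and the vitamin D inactivating gene Cyp24a1 (-0.94, adjusted p = 0.330) came first. Cyp24a1 had 9.47, 10.28 and 11.33 in the PT2385 arrays, against 11.28, 11.59 and 11.03 in the vehicle arrays. Of the receptors (10 measured, median 0.01, or -0.04 with centred arrays and -0.03 with quantile normalization), Pgrmc1, a membrane-associated progesterone receptor component, had 11.01, 10.96 and 10.95 in the PT2385 arrays, against 10.71, 10.74 and 10.74 in the vehicle arrays (0.24, adjusted p = 0.260), and the mineralocorticoid receptor gene Nr3c2 differed by 0.47 (adjusted p = 0.283). Sulfation genes (8 measured, median -0.03) were led by Sult1a1 (0.73, adjusted p = 0.171) and Papss1 (0.42).

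Genes known to be induced by corticoids had no common direction. Of 12 measured genes 5 had higher and 7 lower means in the PT2385 group, with a median of -0.06. The sodium channel subunit gene Scnn1a, an aldosterone target of the collecting duct, had 10.40, 10.12 and 9.76 in the PT2385 arrays, against 9.11, 9.45 and 9.39 in the vehicle arrays (0.78, SE 0.17, adjusted p = 0.0952). It passed without PT2385 replicate 3 (adjusted p = 0.0367). Errfi1, a feedback inhibitor of the EGF receptor, differed by -0.49 (adjusted p = 0.186). Of the prostaglandin genes (7 measured, median 0.02, or -0.02 with centred arrays), the prostaglandin D synthase gene Ptgds had 5.89, 5.18 and 5.29 in the PT2385 arrays, against 4.74, 4.76 and 4.72 in the vehicle arrays (0.72, adjusted p = 0.128). The inducible cyclooxygenase gene Ptgs2 had 4.30, 5.39 and 5.56 in the PT2385 arrays, against 5.81, 6.38 and 7.09 in the vehicle arrays (-1.34, adjusted p = 0.182).

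**Figure D4:**
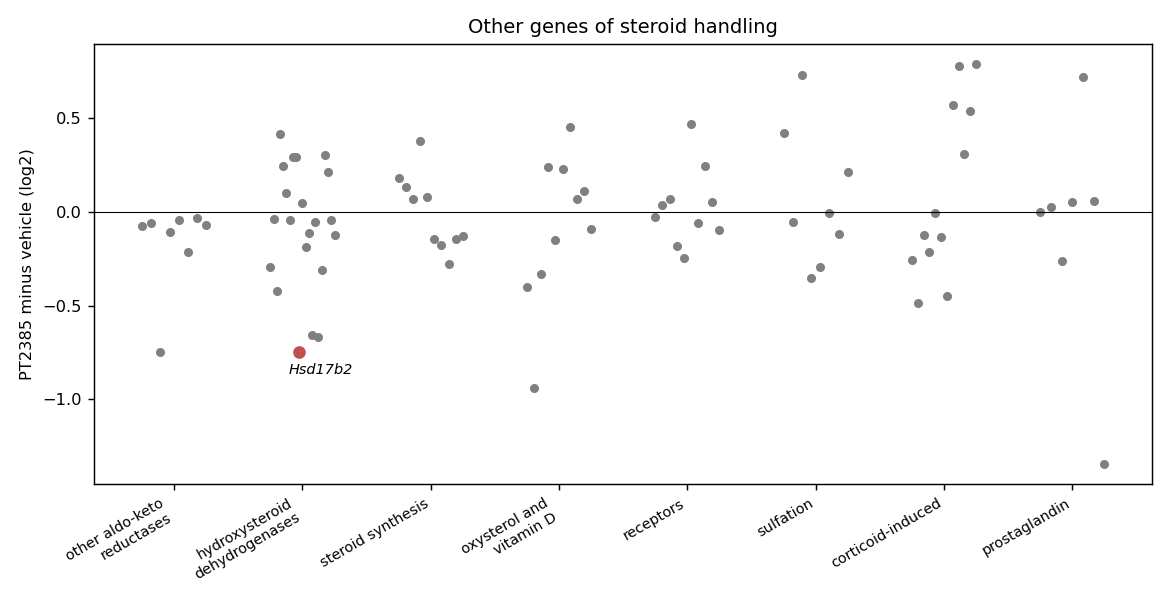
PT2385 minus vehicle difference (vertical axis, log2) of each measured gene in 8 lists of steroid handling; grey points did not pass an adjusted p of 0.05 and the red point, Hsd17b2 at -0.75, did. The points of most lists lie on both sides of 0, and the 8 other aldo-keto reductases all lie below it (7 of 8 with quantile normalization).

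The genes whose profile lay nearest to that of Akr1c18 were Slc7a12, Ceacam2, Serpina1f, Scd1 and Egf. Nearness was the root mean square distance over the 6 arrays after each gene was centred on its own mean, over 19496 other annotated genes, and the arrays share their libraries and the group difference. Slc7a12, an amino acid transporter gene, was nearest at 0.81, with log2 signals of 12.54, 11.58 and 10.32 in the PT2385 arrays, against 7.61, 5.83 and 7.07 in the vehicle arrays. Ceacam2, an adhesion molecule gene, followed at 1.14, with 10.37, 9.49 and 8.98 in the PT2385 arrays, against 6.66, 6.87 and 6.67 in the vehicle arrays. In both, as in Akr1c18, replicate 1 was the highest and replicate 3 the lowest PT2385 array. The serpin gene Serpina1f, the stearoyl-CoA desaturase gene Scd1 and the growth factor gene Egf were at 1.18, 1.25 and 1.42.

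The genes nearest to Akr1c14 were Inmt, Sucnr1, Ugt3a1, C1qtnf3 and Acsm2, at distances of 0.29 to 0.46. Inmt, an N-methyltransferase gene, had 7.55, 5.39 and 5.39 in the PT2385 arrays, against 7.41, 6.89 and 7.27 in the vehicle arrays. Sucnr1, the succinate receptor gene, had 9.41, 8.65 and 7.81 in the PT2385 arrays, against 10.10, 9.55 and 9.63 in the vehicle arrays. Acsm2, a medium-chain acyl-CoA synthetase gene, had 12.12, 11.32 and 10.93 in the PT2385 arrays, against 12.44, 12.39 and 12.46 in the vehicle arrays. PT2385 replicate 1 was the highest array of its group in each of these genes, and in Inmt it lay above all 3 vehicle arrays.

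**Figure D5:**
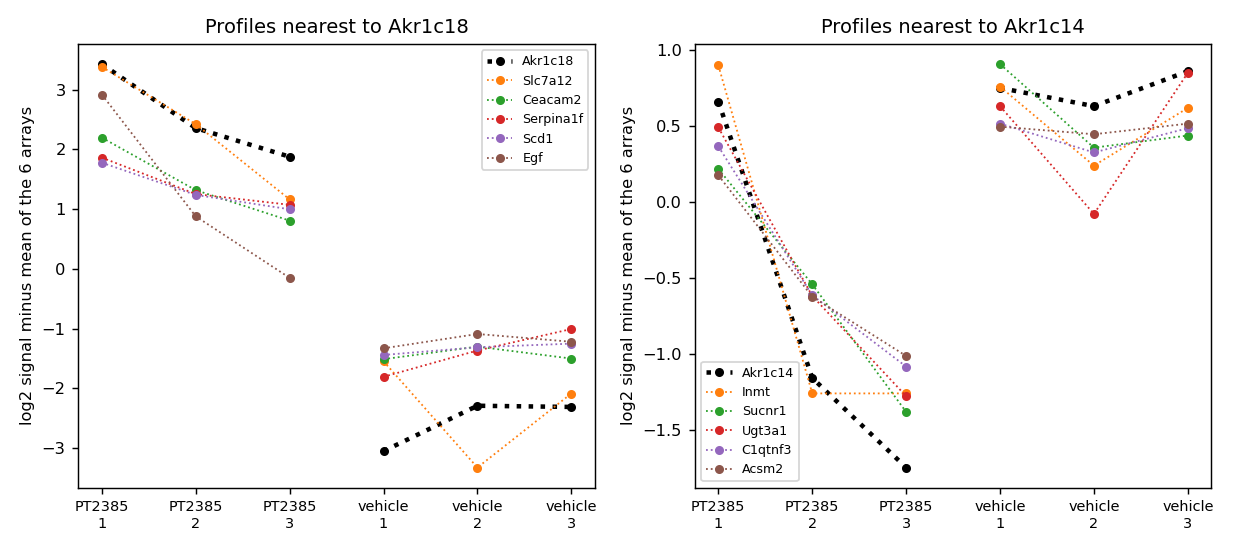
Log2 signal minus the mean of the 6 arrays for Akr1c18 (left, black) and Akr1c14 (right, black) with the 5 annotated genes nearest to each, PT2385 arrays on the left of each panel. Dotted lines join the arrays of a group and mark no order; the Akr1c18 set separates the groups, and in the Akr1c14 set PT2385 replicate 1 lies near the vehicle arrays.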

How the data were processed

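RNA was labelled with biotin for Affymetrix arrays, per the labels' protocols, and the deposited values are log2 signals, 1 per transcript cluster and array, made by the authors with Transcriptome Analysis Console, per the submitters' processing notes. How signals were summarised, background-corrected and normalized, and the tool's version, is not given in the sources used here. Of 28846 rows, 6640 control rows were left out and 22206 clusters were tested without a filter on dim signals. Array medians were 6.24 to 6.25 (PT2385) and 6.20 (vehicle). Symbols came from the platform annotation (19572 clusters with 1 symbol, 0 with several, 2634 with none), and a gene with several clusters was its brightest.

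Each cluster was fitted in R 4.3.3 with limma 3.58.1 (lmFit and eBayes, 2-sided, Benjamini-Hochberg over all clusters, threshold 0.05), with 3 arrays a group. The number of arrays limits the precision. The labels do not say whether each sample is a separate animal, so the p-values cover the spread among these samples only, and that spread may be technical. On simulated arrays of 22206 clusters the fit found 28% of 50 clusters with a log2 change of 0.5, 84% at 1 and 96% at 2, with 11 false calls.

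The members and gene lists were chosen with earlier results of these data known. Named were all members, up to 4 genes of each list past the threshold by size of difference or else the 2 with the smallest unadjusted p, all adrenal and measured Y-linked genes, relatives of the members by symbol, and the 5 nearest profiles of the members with the highest and lowest difference. Gatm, Hsd17b7, Slc22a19, Aadat, Slc5a10, Slc6a18 and Atp11a were named after their values were seen. Of 180 different listed genes 161 were measured. Promoter windows came from RefSeq (GRCm38.p6) and were found for 9 of the 10 members; pairs were aligned with Biopython 1.88. Alternatives were other scalings, a dim filter, 1 cluster per gene, a trended robust prior, a replicate block and the omission of each array. Same-numbered arrays did not deviate together (correlations of deviations from the group means of 0.14, 0.03 and -0.06), so the numbers were not treated as pairs. At most 0.234% of clusters had equal values in 2 arrays, so none was deposited as a copy.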

Additional observations from a re-analysis of the deposited data

How the results depend on the processing

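The number of clusters past the threshold (184) lay between 42, without PT2385 replicate 2, and 179 when each array was left out in turn. With vehicle replicates 1, 2 and 3 left out it was 81, 65 and 72. It was 192 with centred arrays (57 higher and 135 lower), 184 with quantile normalization, 188 with the dim filter, 135 with 1 cluster per gene and 178 with the replicate block. Of the 86 genes of steroid handling 1 passed as deposited, 2 with centred arrays, 2 with the trended robust prior and 0 to 1 when each array was left out in turn. With the replicate block 2 passed, Hsd17b2 and Ptgs2 (adjusted p = 0.00702). Omission of the X and Y chromosomes, chosen after seeing the data, left 150 clusters and 1 gene of steroid handling. The number of members whose groups did not overlap (4) was 4 to 6 when each array was left out in turn. Groups with fewer arrays fail to overlap more easily. The share of all clusters was not taken for these omissions, so nothing is read from that range. All 72 member differences under the other scalings and array omissions moved by less than 1 SD of the replicates. For the omissions this was fixed by the design, since leaving out 1 of 3 arrays cannot move a difference that far. It therefore shows no stability. Among the 72 differences the sign turned for Akr1c21 without PT2385 replicate 3 and for Akr1c13 with centred arrays (-0.02) and in some array omissions. No member had a second cluster to try. Fits without an array rest on fewer samples, and the cause of the other changes was not tested.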
